A study of Mus musculus with 6 samples.

Results

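The genes described here are 10 core members of the Notch pathway among the 20173 genes counted in mouse cultures labelled as sympathetic neurons. They were listed by name and not by a cut on a measured value, but with earlier results of these data known. They are the receptors Notch1, Notch2 and Notch3, the ligands Jag1, Jag2 and Dll1, the DNA-binding effector Rbpj, and the target genes Hes1, Hey1 and Hey2. Sympathetic chains of 3-week-old male mice were cultured in B27 neural medium for 4 to 5 days, and RNA was sequenced from 3 libraries of Slit2fl/fl mice and 3 of Slit2th mice. Slit2fl/fl mice carry floxed Slit2 alleles (labelled SLIT2f/f) and served as the control. Slit2th mice carry the same alleles together with a Cre recombinase driven by the promoter of Th, the tyrosine hydroxylase gene, so the deletion is limited to cells that use or have used this promoter (labelled SLIT2-knockout). All libraries share the floxed alleles and the culture, no sort of the cells is described, and the labels do not say whether each library is a separate animal or a pool. P-values therefore measure the spread between these libraries, which may be technical.

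Notch receptors are membrane proteins that bind Jagged and Delta-like ligands on a neighbouring cell. Binding exposes the receptor to an ADAM protease and then to gamma-secretase, which frees its intracellular part. In the nucleus this part joins RBPJ and Mastermind coactivators and turns on genes of the Hes and Hey families, which encode repressors of the basic helix-loop-helix class. In the peripheral nervous system the pathway is known for holding progenitors back from becoming neurons and for its part in the formation of glia.

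Total counts were 1255939 to 3155406 per library, and 3 counts of a gene, taken as the floor of detection, equal 0.958 to 2.64 CPM, the unit of level used below (TMM-normalized counts on a common library total). Replicate 1 of each group stood apart: taken across genes, log2 CPM of the other Slit2fl/fl libraries correlated at 0.914 (Pearson) and that of the other Slit2th libraries at 0.946, but either replicate 1 correlated with its own group at 0.821 to 0.852. Slit2 itself, the deleted gene, had 139, 85 and 77 counts in Slit2fl/fl and 17, 24 and 27 in Slit2th. The groups did not overlap, and the log2 fold change was −1.78 (SE 0.37). Its adjusted p was 0.422 with edgeR's quasi-likelihood test over 12152 genes, and 0.00603 without replicate 1 of both groups. No gene passed an adjusted p of 0.05 in the fit of all 6 libraries, where the smallest was 0.357 and 485 genes were higher and 824 lower at an unadjusted p under 0.05. DESeq2 called 34 genes on the same counts, and none of them was one of the 10 Notch genes (it gave no adjusted p for Notch3 and Hey1).

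The markers followed the label of a neuron culture only in part. Th, which defines sympathetic neurons, had no count in any library, as had Chga, Scg2 and Nefh, and a count of 0 over all 6 libraries allows up to 0.262 CPM. Of 27 sympathetic neuron markers, 25 were in the table, and their summed level ranged from 206 to 600 CPM in the controls and from 206 to 222 CPM in Slit2th. The 2 highest, Tubb3 and Uchl1, were counted in every library, at 74.8 to 289 and 36.9 to 235 CPM. Of the 25, 5 had no count and 7 were tested, 2 with a positive and 5 with a negative fold change. The 18 glial markers summed to between 6172 and 12122 CPM in the controls and between 13769 and 20534 CPM in Slit2th, with none at 0. The 18 fibroblast markers summed to 2677 to 3740 and 4562 to 5420 CPM. In both lists the lowest Slit2th library exceeded the highest control. Of the 17 glial markers tested, 7 had a positive and 10 a negative fold change, and of the 16 fibroblast markers tested, 14 were positive and 2 negative. The 16 proliferation markers summed to between 519 and 574 CPM in the controls and between 199.8 and 369.5 CPM in Slit2th. Of these, 15 had a negative fold change, and 6 were lower at an edgeR unadjusted p under 0.05, against 6.78% of all tested genes. Every Slit2th library was below every control for 8 of them, against 9.74% of all tested genes. The 8 sensory neuron markers summed to at most 7.76 CPM. The 15 macrophage markers summed to between 36.9 and 128 CPM in the controls and between 130 and 672 CPM in Slit2th, again without overlap. Of the 12 tested, 11 had a positive fold change, and 6 were higher at an edgeR unadjusted p under 0.05, against 3.99% of all tested genes. At that threshold 4 fibroblast markers were higher and 2 glial markers lower. In bulk RNA, more cells of a type and more RNA per cell cannot be told apart, and this holds for every level given here.

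The Notch genes covered a wide range of levels. Compared per kilobase of exon, the mean over the 6 libraries was 896 CPM per kb for Hes1, 12.1 for Notch2, 4.94 for Rbpj, 1.87 for Jag1, 1.29 for Notch1 and 1.01 for Hey1. Notch3 followed with 0.187 CPM per kb and Hey2 with 0.058, and Jag2 had no count. Dll1 had a mean of 2.23 CPM per kb that came from 1 library. Hes1 stood 74.3 times above Notch2, the next gene of the list, and ranked 40 among the tested genes with a known length, above 99.7% of them. It held 73.9% to 91.8% of the summed CPM of the 10 genes in each library. Notch2 was above Rbpj in 6 of 6 libraries, although their ranges over libraries overlapped (5.30 to 19.98 and 2.93 to 6.58 CPM per kb). Jag1, Notch1 and Hey1 overlapped each other in range and are not ordered beyond their spread. Notch3 lay below every library of Hey1, at 0.294 CPM per kb or less.

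**Figure D1:**
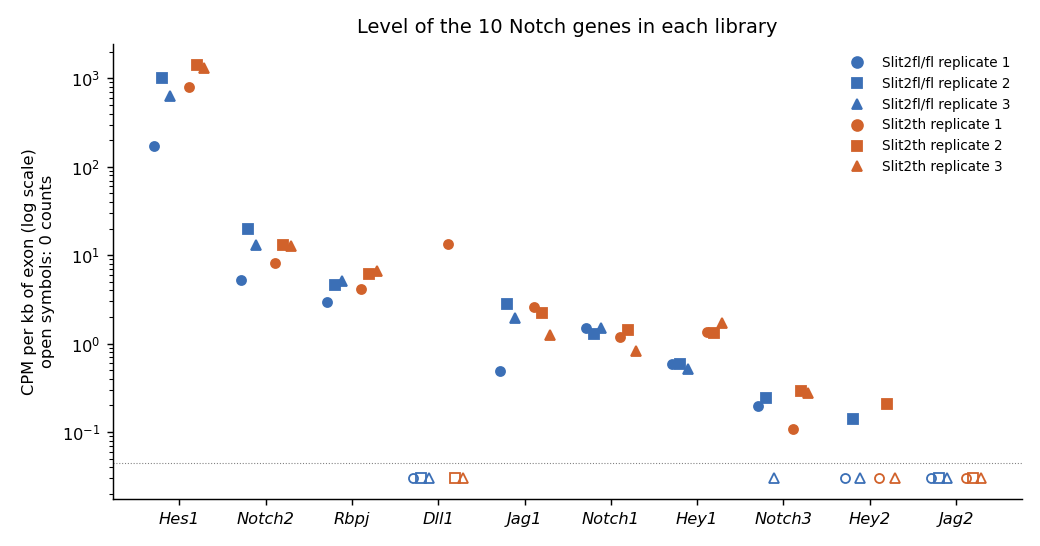
Level of each of the 10 Notch genes in each library, as CPM per kb of exon on a log axis, with Slit2fl/fl in blue, Slit2th in orange and the replicate number as the symbol; open symbols under the dotted line mark libraries with 0 counts and have no height. Hes1 lies far above the rest in every library, Dll1 was counted in 1 library alone, and Jag2 in none.

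Among the receptors, Notch2 was the most abundant and Notch1 varied least over the 6 libraries. Notch1 had 67, 28 and 38 counts in Slit2fl/fl and 19, 43 and 21 in Slit2th. Normalized levels were 21.4, 18.1 and 21.6 CPM against 16.7, 20.5 and 11.8 CPM. The groups overlapped, since Slit2th replicate 2 lay between the Slit2fl/fl libraries. Slit2th minus Slit2fl/fl gave a log2 fold change of −0.32 (SE 0.40, 95% confidence interval −1.22 to 0.59), with an adjusted p of 0.758 by edgeR's quasi-likelihood test.

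Notch2 had 179, 333 and 250 counts in Slit2fl/fl and 99, 297 and 243 in Slit2th, or 57.2, 215 and 142 CPM against 87.1, 141 and 137 CPM. The lowest and the highest library were both Slit2fl/fl, and replicate 1 was the lowest of each group. The log2 fold change of −0.18 (SE 0.48, 95% confidence interval −1.27 to 0.92, adjusted p = 0.892 with edgeR) changed sign with the library left out, from −0.59 to 0.33. Per kilobase, Notch2 was 3.53 to 15.7 times the level of Notch1 in the 6 libraries, lowest in Slit2fl/fl replicate 1 and highest in Slit2fl/fl replicate 2.

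Notch3, the receptor known from mural cells of blood vessels, had 5, 3 and 0 counts in Slit2fl/fl and 1, 5 and 4 in Slit2th. At most 5 counts per library give a fold change with a wide error (log2 0.64, SE 1.02, edgeR adjusted p = 0.800), so a difference was not detectable at this depth. The 12 mural markers summed to between 211 and 340 CPM in the controls and between 331 and 492 CPM in Slit2th, and their part in the Notch3 counts was not tested. The exons of the 3 receptors overlap other annotated genes, Gm13568 and 0610009E02Rik on the opposite strand for Notch1, Gm42820 on the same strand for Notch2 and Gm17276 on the opposite strand for Notch3. Whether the counting used strand is not given in the sources used here, so reads in the shared stretches cannot be assigned to either gene. The opposite-strand genes were low: 0610009E02Rik had at most 12 counts, Gm13568 at most 8 and Gm17276 at most 2 in any library.

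The ligands were scarce. Jag1 was the only one counted in every library, with 9, 25 and 20 counts in Slit2fl/fl and 17, 27 and 13 in Slit2th. Its levels were 2.87, 16.2 and 11.4 CPM against 14.96, 12.9 and 7.32 CPM, and the groups overlapped. The log2 fold change was 0.23 (SE 0.65, 95% confidence interval −1.23 to 1.70), with an adjusted p of 0.893 by edgeR. Slit2fl/fl replicate 1, the lowest of all, set the sign: without it the value was −0.27, and without replicate 1 of both groups −0.44. Jag2 had 0 counts in all 6 libraries, which allows up to 0.262 CPM.

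Dll1 was counted in 1 library alone. It had 64 counts in Slit2th replicate 1 (95% Poisson interval 49.3 to 81.7, counting error only), equal to 56.3 CPM, and 0 in each of the other libraries. It was not tested, because a CPM of at least 1 was required in 3 libraries. Counts of this kind were rare: across the table, 23 genes had 10 or more counts in a single library and none elsewhere, 5 of them in Slit2th replicate 1, and Dll1 was the only one to reach 64. The nearest counted neighbour, Fam120b at a distance of 19330 bases, had 18 counts in that library, which has the smallest total, and 29 to 67 in the others. The exons of Dll1 overlap A930024N18Rik on the opposite strand, which was not analysed here. The same library also held 181 CPM of Aif1, a macrophage gene with at most 0.639 CPM in any other library, and its 15 macrophage markers summed to 672 CPM, against 130 and 152 CPM in the other Slit2th libraries and 36.9 to 128 CPM in the controls. The part of these cells, or of this library's handling, in the Dll1 counts was not tested.

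Rbpj, the factor through which the receptors act on DNA, was present in every library. It had 117, 91 and 116 counts in Slit2fl/fl and 60, 166 and 149 in Slit2th. Levels were 37.4, 58.9 and 65.8 CPM against 52.8, 79.0 and 83.9 CPM. Slit2th replicates 2 and 3 were the highest of all, while Slit2th replicate 1 lay within the control range. Its log2 fold change was 0.42 (SE 0.38, 95% confidence interval −0.43 to 1.27), with an adjusted p of 0.658 by edgeR. It was positive under all 15 alternative settings, from 0.16 to 0.60, and past the threshold under none.

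RBPJ binds the core TGGGAA, read as TTCCCA on the other strand. Promoter windows of RefSeq, from 250 bases before to 50 after the start, were found for 8 of the 10 genes (10 windows, build GRCm38.p6); Hes1 and Hey1 had no entry. The core stood in 3 of these 10 windows, 2 of Rbpj and 1 of Hey2, against 25.6% of all 32851 windows of the same length. The sites are shown because they are the letters the factor of this pathway is known to read, here beside its own gene and a target gene. Each line gives 30 bases in the direction of the gene, with the core in capitals, and the distance is that of its first base:
Rbpj, 149 bases before the start, chr5:53590185-53590214, plus strand: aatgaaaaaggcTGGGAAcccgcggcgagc
Rbpj, 65 bases before the start, chr5:53590269-53590298, plus strand: gacgctcgcattTTCCCAggacccctcctc
Hey2, 207 bases before the start, chr10:30842973-30843002, minus strand: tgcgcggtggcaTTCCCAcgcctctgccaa
Hey2, 3 bases before the start, chr10:30842769-30842798, minus strand: tgggctgcagcgTGGGAAagaacctccagg
The second Rbpj site also lies in the gene's other window, 205 bases before that start. A match of 6 letters is a description of the sequence, and no binding was measured. Hey2, which holds 2 of these sites, was all but uncounted, with 1 count in Slit2fl/fl replicate 2, 2 counts in Slit2th replicate 2 and 0 in the others, so it was not tested.

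Of the targets, Hes1 was by far the most abundant. Hes1 (chromosome 16, 30064384 to 30067796 on the plus strand of GRCm38, no overlapping gene) encodes the repressor that holds back proneural genes. It had 1085, 3197 and 2273 counts in Slit2fl/fl and 1841, 6125 and 4801 in Slit2th. In CPM this is 347, 2068 and 1290 against 1621, 2916 and 2704. Slit2th replicates 2 and 3 were the highest of the 6 and Slit2fl/fl replicate 1 the lowest, but Slit2fl/fl replicate 2 was above Slit2th replicate 1, so the groups overlapped. The means were 1235 ± 862 CPM (SD, n = 3) and 2414 ± 695 CPM (SD, n = 3).

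The log2 fold change of Hes1 was 0.97 (SE 0.58, 95% confidence interval −0.35 to 2.29), with an adjusted p of 0.537 by edgeR's quasi-likelihood test (unadjusted p = 0.132). It rested partly on 1 library: without Slit2fl/fl replicate 1 the value was 0.48, and without Slit2fl/fl replicate 2 it was 1.6 (edgeR unadjusted p = 0.0373, adjusted p = 0.348). With replicate 1 of both groups left out, the value was 0.73 at an edgeR unadjusted p of 0.00307 and adjusted p of 0.0726, the lowest adjusted p of any of the 10 genes under any setting. In that fit 396 of 12152 genes passed the adjusted threshold, and 877 were higher at an edgeR unadjusted p under 0.05. The glial marker sum was also lowest in Slit2fl/fl replicate 1 (6172 CPM) and higher in every Slit2th library. The part of glial, fibroblast or macrophage RNA in the Hes1 values was not tested.

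Hey1 was the only member whose groups did not overlap. Hey1 (chromosome 3, 8663359 to 8667256 on the minus strand of GRCm38, no overlapping gene) encodes a related repressor. It had 6, 3 and 3 counts in Slit2fl/fl and 5, 9 and 10 in Slit2th. After normalization these were 1.92, 1.94 and 1.70 CPM against 4.40, 4.29 and 5.63 CPM. The highest control was thus below the lowest Slit2th library, but the whole comparison rests on 12 counts in one group and 24 in the other, and the lowest counts were at the floor of 3. Such a separation, with Slit2th higher, was found in 8.72% of all tested genes. The log2 fold change was 1.33 (SE 0.63, 95% confidence interval −0.09 to 2.76), with an adjusted p of 0.473 by edgeR (unadjusted p = 0.0584). The two-sided exact permutation test gave its smallest possible value with 3 libraries against 3, p = 0.10. Over the 15 settings the fold change stayed between 1.15 and 1.46, and the adjusted p was 0.394 or more where one was given. With the stricter filter of a CPM of 1 in each of the 6 libraries, edgeR gave an unadjusted p of 0.0145 (adjusted p = 0.406). The fibroblast, glial and macrophage marker sums ordered the groups in the same way, and their part in the Hey1 counts was not tested.

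**Figure D2:**
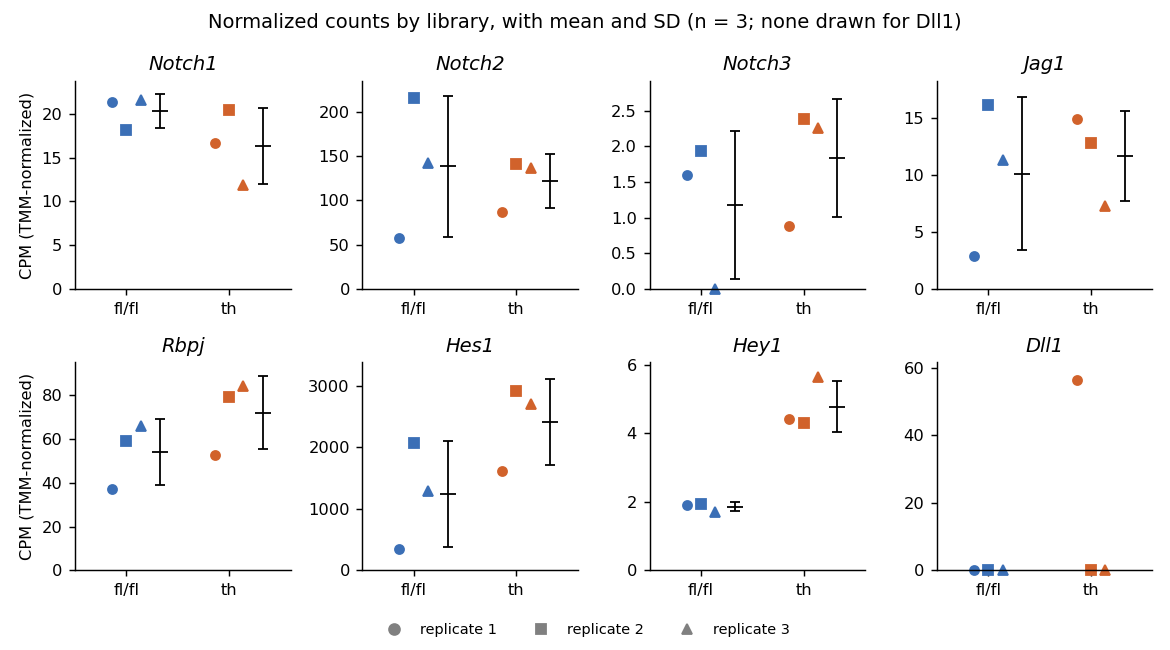
Normalized counts (CPM, linear axes from 0) of 8 Notch genes in each library, Slit2fl/fl in blue and Slit2th in orange, with the replicate number as the symbol and the mean with SD (n = 3) as a bar beside the points of all genes except Dll1. The groups are apart in Hey1 alone among the 7 tested genes, Hes1 is lowest in Slit2fl/fl replicate 1, and the 64 counts of Dll1 are all in Slit2th replicate 1.

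Taking the 10 genes as a list, 7 passed the filter, and Jag2, Dll1 and Hey2 did not. Of the 7, 5 had a positive and 2 a negative fold change, with a median of 0.42 against −0.05 for all tested genes. None passed the adjusted threshold, against 0% of all genes. With all 6 libraries and the filter described, none had an unadjusted p under 0.05 in edgeR, against 3.99% of all tested genes in the higher and 6.78% in the lower direction. Hey1 was the 1 gene of the 7 with every Slit2th library higher, against 8.72% of all tested genes. None of the 7 had every Slit2th library lower, against 9.74% of all tested genes. The 2 tested targets had the highest fold changes of the list. The confidence intervals of all 7 genes included 0, and each also included a change of 1 on the log2 scale in at least one direction.

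**Figure D3:**
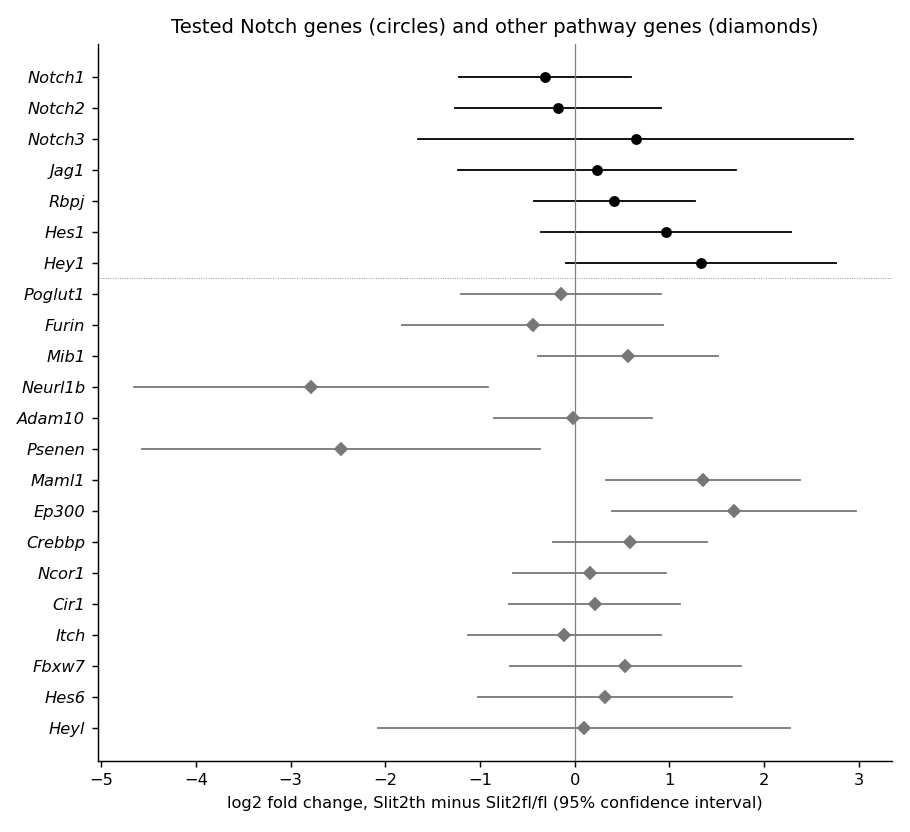
Log2 fold change of Slit2th minus Slit2fl/fl with its 95% confidence interval for the 7 tested Notch genes (black circles) and 15 other pathway genes (grey diamonds), from edgeR. All intervals of the Notch genes cross 0, and those of Neurl1b, Psenen, Maml1 and Ep300 do not, at adjusted p-values of 0.422 or more. The 15 include, by rule, every one of the 43 tested pathway genes with an edgeR unadjusted p under 0.05, while the Notch genes were listed by name.

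The other genes of the pathway did not move one way. Of 55 further genes listed by role, 52 were in the table (Dlk2, Hes5 and Nrarp were not analysed here) and 43 were tested. Of these, 21 had a positive and 22 a negative fold change, with a median of −0.02. At an unadjusted p under 0.05, 2 were higher and 2 lower in Slit2th, against 3.99% and 6.78% of all tested genes, and none passed the adjusted threshold. Every Slit2th library was above every control for 4 of them and below for 3, against 8.72% and 9.74% of all tested genes. The further receptors and ligands were near or at 0: Dll4 had no count, and Notch4, Dll3 and Dlk1 had at most 2 counts in a library. Dner, an atypical ligand, had 4, 6 and 0 counts in Slit2fl/fl and 1, 0 and 1 in Slit2th. Notch4 and Dll4 are known from endothelium, and the 14 endothelial markers summed to between 42.6 and 136 CPM in the controls and between 50.5 and 58.1 CPM in Slit2th.

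Upstream of the receptor come the enzymes that modify or mature it. Poglut1, which adds O-glucose to Notch, had a log2 fold change of −0.14 (SE 0.47), and Furin, which cleaves the precursor, −0.44 (SE 0.61). All 4 tested genes of this group were negative, with a median of −0.29 against −0.05 for all tested genes. Without Slit2fl/fl replicate 1, however, Poglut1 had 0.27 and Furin 0.38. Rfng, a fringe glycosyltransferase named after its values were seen, was lower in every Slit2th library than in any control (8.94, 6.47 and 7.95 CPM against 4.40, 3.33 and 4.51 CPM, log2 fold change −0.94, SE 0.52, edgeR adjusted p = 0.509). Neurl1b, a ubiquitin ligase that acts on the ligands, had the lowest fold change of the pathway. It had 153, 15 and 38 counts in Slit2fl/fl and 2, 17 and 2 in Slit2th, or 48.9, 9.70 and 21.6 CPM against 1.76, 8.09 and 1.13 CPM. The groups were apart, but by less than the differences among the controls. A log2 fold change of −2.79 (SE 0.83) had an adjusted p of 0.422 by edgeR (unadjusted p = 0.00784), and the value ranged from −4.58 to −1.72 over the settings. Mib1, the more abundant ligase of this group, had a log2 fold change of 0.56 (SE 0.42), with 57.8, 136 and 173 CPM against 185, 177 and 180 CPM. Without Slit2fl/fl replicate 1, the lowest library for Mib1, the value was 0.19, as it was without replicate 1 of both groups.

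Of the proteases, Adam10, which makes the first cut, had a log2 fold change of −0.02 (SE 0.37) at a mean of 191 CPM per kb. Psenen, a subunit of gamma-secretase, was dominated by 1 library. It had 1298, 49 and 115 counts in Slit2fl/fl and 66, 34 and 35 in Slit2th, or 414.5, 31.7 and 65.3 CPM against 58.1, 16.2 and 19.7 CPM. The log2 fold change was −2.47 (SE 0.93, unadjusted p = 0.0262, edgeR adjusted p = 0.429). Without Slit2fl/fl replicate 1 it was −0.66, and without replicate 1 of both groups −1.45 with an adjusted p of 0.0441. Psenen overlaps U2af1l4 and Gm49396 on the opposite strand, so its reads cannot be told from theirs if strand was not used. Of the 9 genes of this group, 3 were positive and 6 negative.

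The nuclear coactivators were the group with the most positive values, 7 of 8, with a median of 0.58 against −0.05 for all tested genes. Maml1, a Mastermind protein that binds the receptor and RBPJ together, had 22, 22 and 17 counts in Slit2fl/fl and 38, 55 and 34 in Slit2th. That is 7.03, 14.2 and 9.65 CPM against 33.4, 26.2 and 19.2 CPM, with no overlap (log2 fold change 1.36, SE 0.45, unadjusted p = 0.0147, edgeR adjusted p = 0.422). Ep300, the histone acetyltransferase p300, was at 33.2, 106 and 82.9 CPM in the controls against 421, 151 and 143 CPM in Slit2th, again with no overlap. Its log2 fold change was 1.69 (SE 0.57, unadjusted p = 0.0157, edgeR adjusted p = 0.422). Slit2th replicate 1 carried much of it: without that library the value was 0.996, and without replicate 1 of both groups 0.63. Crebbp, the related acetyltransferase, had a log2 fold change of 0.58 (SE 0.36), with 73.1, 138 and 125 CPM against 201, 148 and 155 CPM. Without replicate 1 of both groups the value for Crebbp was 0.19. These proteins serve many promoters besides those of Notch targets.

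Of the corepressor genes listed for RBPJ without the receptor, 5 of 8 were positive, with a median of 0.12 and a range of −0.86 to 0.33. Ncor1 had a log2 fold change of 0.16 (SE 0.36) and Cir1 of 0.21 (SE 0.40). Hdac1, a histone deacetylase named after its values were seen, was at the low end with −0.86 (SE 0.44, edgeR adjusted p = 0.492), and its groups did not overlap (132.5, 73.8 and 73.8 CPM against 28.2, 62.9 and 62.5 CPM). Among the genes of receptor turnover, 3 of 8 were positive. The ubiquitin ligases Itch (−0.11, SE 0.45) and Fbxw7 (0.54, SE 0.54) were within their error on the log2 scale. Of the remaining targets, Hes6 had 11.8, 5.82 and 3.41 CPM against 5.28, 9.999 and 11.3 CPM (log2 fold change 0.32, SE 0.59). Heyl had at most 6 counts per library (log2 fold change 0.10, SE 0.96), and Hes7 at most 3, too few to be tested.

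**Figure D4:**
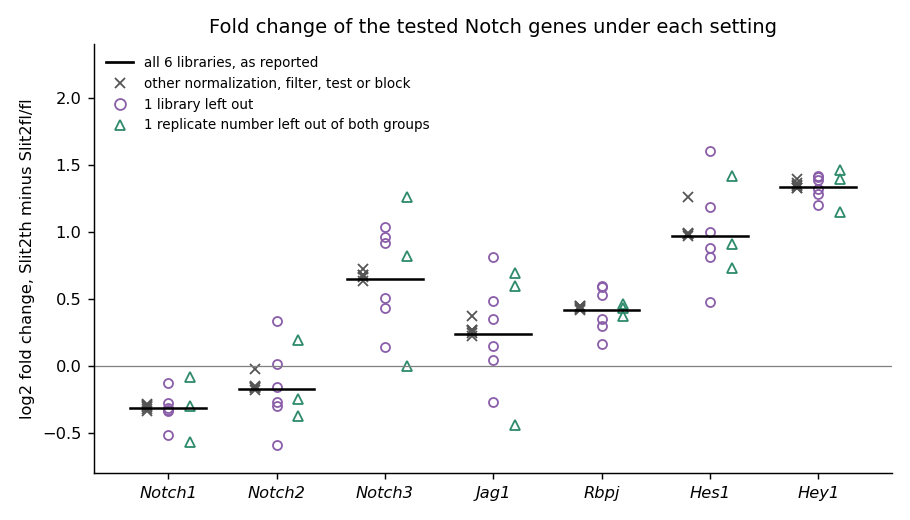
Log2 fold change of the 7 tested Notch genes with all 6 libraries (black line), under another normalization, filter, test or replicate block (crosses), and with 1 library (circles) or 1 replicate number of both groups (triangles) left out. Notch1, Rbpj, Hes1 and Hey1 keep their sign throughout, Notch2, Notch3 and Jag1 do not, and Hes1 spans 0.48 to 1.6.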

How the data were processed

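The authors prepared libraries with the Illumina TruSeq kit, sequenced them on an Illumina instrument and aligned the reads with HISAT2 to mm10 by the paper, while the submitters' processing notes name GRCm39. The deposited table holds whole-number read counts for 20173 genes in 6 libraries, not normalized. The counting program, strand setting and annotation release are not given in the sources used here. From these counts, the 12152 genes that reached a CPM of 1 in 3 or more libraries were normalized by TMM and compared with edgeR 4.0.16 (quasi-likelihood test, no covariates, Benjamini-Hochberg adjustment over all tested genes, threshold 0.05) in R 4.3.3. DESeq2 1.42.0 was an alternative. Total counts of 1255939 to 3155406 and a biological coefficient of variation of 50.4% set the precision. The tests were checked on simulated counts. Positions, lengths and overlaps come from GENCODE M21 (GRCm38), in which 20166 identifiers were found.

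The 10 Notch genes, the 55 other pathway genes and the marker lists were chosen with earlier results of these data known, and their counts are descriptions. The genes named are all 10, Slit2 and, of the other pathway genes, the further receptors, ligands and targets, the 2 tested genes of each role with the highest mean CPM, and every gene with an unadjusted p under 0.05, while Rfng and Hdac1 were chosen after their values were seen. Of each marker list, at most 2 genes with the highest level are named, beside those at 0, and some are not reported here. The alternatives were 2 other normalizations, 2 other filters, DESeq2's Wald test, a block for the replicate number, and fits without each library or each replicate number.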

Additional observations from a re-analysis of the deposited data

How the results depend on the processing

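None of the 7 tested Notch genes passed the adjusted threshold under any of 15 alternatives (DESeq2 gave no adjusted p for Notch3 and Hey1, and Notch3 did not reach the stricter filter). Of 104 recomputed fold changes of these genes, 98 kept their sign and 6 did not, all 6 with a library left out: Notch2 ranged from −0.59 to 0.33, Notch3 from −0.00182 to 1.26 and Jag1 from −0.44 to 0.81. Of the other pathway genes, Adam10 had 0.00593 with DESeq2's size factors and 0.00617 with DESeq2's Wald test. With a library left out, Adam10 ranged from −0.32 to 0.16, Poglut1 from −0.41 to 0.27, Furin from −0.83 to 0.38, Ncor1 from −0.0728 to 0.36, Cir1 from −0.22 to 0.52, Itch from −0.49 to 0.30, Fbxw7 from −0.31 to 1.09, Hes6 from −0.20 to 1.19 and Heyl from −0.64 to 1.405. The number of genes past the adjusted threshold was 34 with DESeq2's Wald test and 7 with no low-count filter, which also gave 758 genes higher at an unadjusted p under 0.05. With libraries left out it was 0 to 396, the 396 without replicate 1 of both groups and 1 without Slit2fl/fl replicate 1. In the same fits 268 to 877 genes were higher and 435 to 1222 lower at an unadjusted p under 0.05. The cause of these changes was not tested. Depth limits Notch3, Hey1, Heyl and Hey2, which had at most 10 counts in any library.

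The groups share replicate numbers 1 to 3 in the labels. The deviations of same-numbered libraries from their group means correlated at 0.256, 0.191 and 0.0583, not all above 0.1, so the numbers were not taken as pairs. With the replicate block, 0 genes passed the adjusted threshold, with 693 higher and 921 lower at an unadjusted p under 0.05, Hes1 had a log2 fold change of 1.26 (edgeR unadjusted p = 0.0139, adjusted p = 0.297), and Adam10 had 0.0429.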
